A study of Homo sapiens with 6 samples.

Results

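miR-210 was measured in Panc-1 cells through both arms of its hairpin, hsa-miR-210-3p and hsa-miR-210-5p. They were found by name among the miRNA probes of the array and are 2 of its 2565 miRNA probes, with a single spot each. Panc-1 is an established human cell line of pancreatic ductal adenocarcinoma. RNA from control cells (TGF-β at 0 ng/mL) was hybridized to 3 arrays, and RNA from cells exposed for 72 h to TGF-β at 10 ng/mL to the other 3, each array being read in 1 colour (Cy5). The controls were kept for the same 72 h, and the labels describe no group as hypoxic. The labels do not say whether the arrays of a group came from separate cultures, so that the p-values measure the spread between arrays, which may be technical. The scanner output of the controls carried a shared identifier and that of the TGF-β arrays another. These were read as slide identifiers, though the labels name no slide. On this reading treatment cannot be told apart from slide.

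miR-210 is known as the miRNA most regularly induced by low oxygen, when hypoxia-inducible factor binds upstream of its gene. Its 3p arm is the strand mainly loaded into Argonaute, where bases 2 to 8, the seed, pair with messenger RNAs such as that of ISCU, a scaffold for iron-sulfur clusters in the mitochondrion, and that of EFNA3, an ephrin ligand. The 5p arm is the partner strand of the duplex and is usually degraded. TGF-β is a secreted cytokine that drives the epithelial-mesenchymal transition in this cell line, and the comparison asks whether miR-210 moved with that treatment.

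The sequences are shown because the arms were measured by separate probes, and how alike other miRNAs are to them bears on what each probe can report. They are from RefSeq (GRCh38.p14), and capitals mark the seed in each mature arm and both arms in the hairpin. The array files themselves name no genome build.
hsa-miR-210-3p: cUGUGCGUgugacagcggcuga
hsa-miR-210-5p: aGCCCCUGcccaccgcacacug
MIR210 hairpin: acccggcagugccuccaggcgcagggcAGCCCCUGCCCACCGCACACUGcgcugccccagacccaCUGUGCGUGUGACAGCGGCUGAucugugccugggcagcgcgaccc

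MIR210 lies on the minus strand of chromosome 11 (568089 to 568198), within the bounds of MIR210HG, a lncRNA gene (565657 to 568457). The 3p arm covers 568112 to 568133 and the 5p arm 568150 to 568171. In the 110-base hairpin they take positions 66 to 87 and 28 to 49, with 16 bases of loop between them. The predicted fold of lowest energy (-59.5 kcal/mol) joined the arms by 16 base pairs, of which 11 were G-C and 5 A-U. The mature arms had a GC content of 63.6% (3p) and 72.7% (5p). RefSeq held a sequence for 2253 of the miRNA names on the array. None of these shared bases 2 to 8 with either arm. The ungapped sequence most like miR-210-3p was that of miR-6804-5p, with 14 of 22 bases identical, and those most like miR-210-5p were miR-3620-3p and miR-6804-3p, also with 14 of 22. None of these neighbours passed the test between groups (adjusted p of 0.714, 0.751 and 0.489 from limma), where 3.98% of all detected miRNAs did.

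Both arms were detected on all 6 arrays. Detection was a signal above the mean of the blank spots plus 2 SD, the blank spots being positions without a probe, after the lowest and the highest 5% were dropped. The limits came to 19.5 to 22.8 intensity units, and 1457 of the miRNAs (56.8%) passed them on all arrays of the controls, of the TGF-β group or of both. The 3p probe gave spot signals of 177, 145 and 167 units on control arrays 1, 2 and 3 and of 144, 167 and 174 units on TGF-β arrays 1, 2 and 3. Measured in SDs of the blank spots, they lay 190 to 281 above the blank mean. The 5p probe gave 27.2, 26.4 and 33.4 units on the control arrays, against 28.9, 29.4 and 31.6 units with TGF-β. It stood 11.8 to 20.2 SDs above the blank mean, above the limit on every array but far dimmer than the 3p probe. Among the 2565 miRNA spots of an array ordered from the brightest, the 3p probe had ranks 143, 171 and 179 on the control arrays, against 165, 167 and 157 with TGF-β. The 5p probe had ranks 650, 712 and 625 on the control arrays, against 627, 632 and 616 with TGF-β. Ranks need no scaling between arrays, and for both arms the ranks of the groups overlapped. Probes differ in how strongly they bind, and the ranks order brightness and not the number of molecules.

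After the blank mean was subtracted, miR-210-3p was at 159, 126 and 146 units in control cells, a mean of 143 ± 16.3 (SD, n = 3). In TGF-β-treated cells it was at 125, 148 and 153 units, a mean of 142 ± 15.1 (SD, n = 3). Control replicate 1 was the highest of all arrays and TGF-β replicate 1 the lowest, and the groups overlapped. miR-210-5p was at 8.95, 7.32 and 12.1 units on the control arrays (9.47 ± 2.45, SD, n = 3), against 9.48, 10.7 and 10.8 units with TGF-β (10.3 ± 0.714, SD, n = 3). Here both the lowest and the highest array belonged to the controls. In the deposited processed values, which subtract the same blank mean and scale each array to a median of 25, miR-210-3p averaged 563 ± 82.6 (SD, n = 3) without and 609 ± 94.4 (SD, n = 3) with TGF-β. miR-210-5p was 36.7 ± 4.51 (SD, n = 3) and 44.0 ± 6.25 (SD, n = 3) on that scale.

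**Figure D1:**
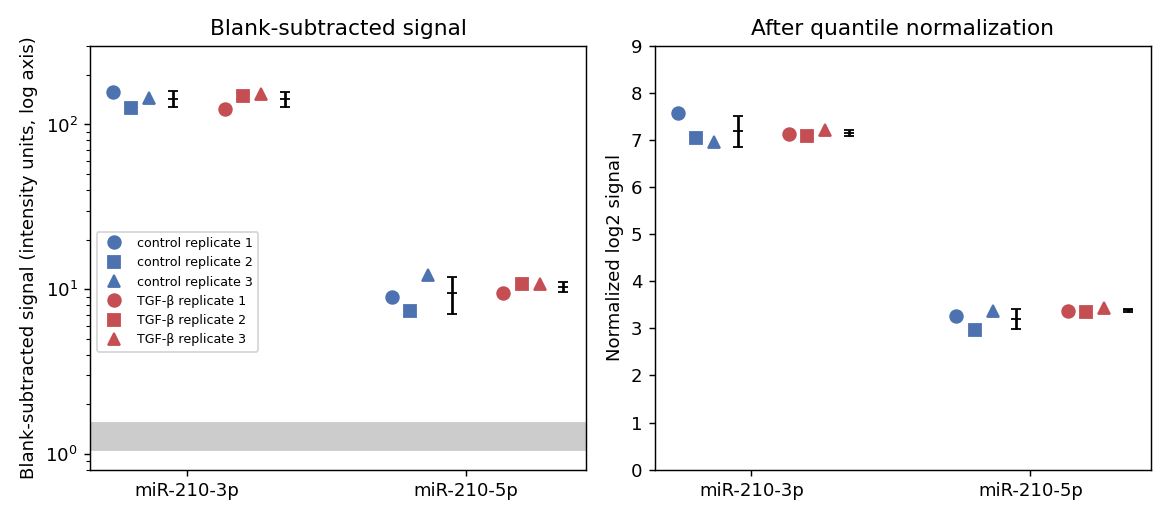
Signal of miR-210-3p and miR-210-5p on each of the 6 arrays, as blank-subtracted intensity units on a log axis (left) and as normalized log2 values (right). Colours mark the group, marker shapes the replicate, black bars the mean ± SD (n = 3), and the grey band 2 SD of the blank spots, which is the detection limit over the 6 arrays. The 3p points lie between 125 and 159 units and the 5p points between 7.32 and 12.1 units, and for each arm the control and TGF-β points overlap.

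miR-210-3p did not pass the test between the groups. Its log2 values after quantile normalization were 7.57, 7.04 and 6.96 on the control arrays, against 7.13, 7.09 and 7.21 with TGF-β. limma gave a log2 fold change of -0.05 with a standard error of 0.14 (adjusted p = 0.946), and the exact permutation test, 2-sided, gave p = 1. The 95% interval of the fold ran from 0.783 to 1.20. miR-210-5p did not pass either. Its log2 values were 3.26, 2.96 and 3.38 on the control arrays, against 3.37, 3.35 and 3.42 with TGF-β, the TGF-β arrays being close together and control replicate 3 within their range. Its log2 fold change from limma came to 0.18 with a standard error of 0.15 (adjusted p = 0.669), and the exact permutation test, 2-sided, gave p = 0.3, with a 95% interval of the fold from 0.905 to 1.42. With 3 arrays against 3 the smallest p of the exact test is 0.1.

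Read against all 1457 detected miRNAs, 0 of the 2 arms were called at an adjusted p under 0.05 in limma, where 3.98% of all miRNAs were called, 2.61% higher and 1.37% lower in TGF-β-treated cells. The groups overlapped for both arms, and they did not overlap for 18.9% of all detected miRNAs. The change of miR-210-3p was larger than that of 18.0% of the detected miRNAs in absolute size and that of miR-210-5p larger than that of 55.2%, beside a median absolute log2 change of 0.15 over all of them. The SD within groups of miR-210-3p was 0.24 on the log2 scale and that of miR-210-5p 0.15, with a median of 0.21 over all detected miRNAs.

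**Figure D2:**
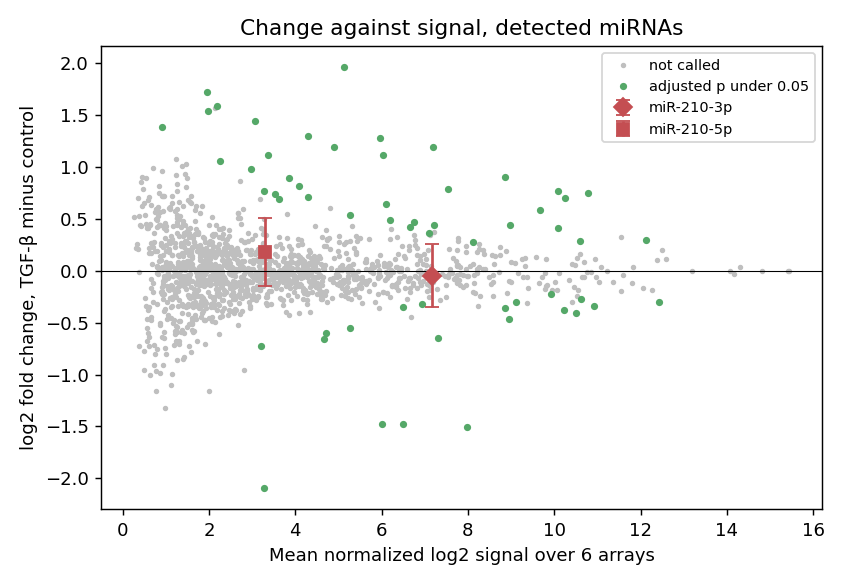
Log2 fold change of TGF-β minus control against the mean normalized log2 signal for the 1457 detected miRNAs, with those at an adjusted p under 0.05 in green. The red points with 95% intervals are miR-210-3p (-0.05) and miR-210-5p (0.18), both among the uncalled miRNAs and with intervals that cross 0.

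For miR-210-3p, control replicate 1 stood apart, at 0.57 above the mean of the other controls on the normalized log2 scale. This gap was larger than the same gap of 90.6% of the 1133 miRNAs detected on all arrays with a RefSeq sequence. Without control replicate 1 miR-210-3p had a log2 fold change of 0.14 with a standard error of 0.08 (adjusted p = 0.502 from limma), opposite in sign and still not called. For miR-210-5p the gap of control replicate 1 was 0.09 and the log2 fold change without that array 0.20. The gap moved weakly with base composition over these 1133 miRNAs, with a Pearson correlation of 0.27 to the GC content. Its median was -0.21 for the 91 miRNAs with a GC content under 40% and 0.11 for the 193 with 70% or more, and 0.04 in the range from 60% to under 70% that holds miR-210-3p. The part of base composition in the value of miR-210-3p was not tested.

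The local background, the intensity read around each spot, was higher around brighter spots on these arrays. At the 3p spot it was 185, 121 and 145 units on the control arrays and 115, 132 and 129 units on the TGF-β arrays, which was 0.741 to 1.04 of the signal of the spot itself and 5.92 to 10.1 times the mean of the blank spots. On each array this was below the median of the 200 brightest miRNA spots, which was 7.95 to 14.4 times the blank mean. On control replicate 1 it exceeded the spot. At the dim 5p spot it was 0.834 to 1.24 times the blank mean. With the local background in place of the blank spots (limma's normexp, offset 50), miR-210-3p had a log2 fold change of 0.32 with a standard error of 0.12 and miR-210-5p of -0.06 with 0.06, each at an adjusted p of 0.990. The miR-210-3p groups did not overlap on that scale, with 6.18, 6.41 and 6.43 on the control arrays, against 6.86, 6.48 and 6.64 with TGF-β (unadjusted p = 0.0304 from limma), while those of miR-210-5p did. With that correction 7.14% of the detected miRNAs had groups that did not overlap, and 34 of the 1457 had an unadjusted p under 0.05, none of which was called. The direction of both arms therefore depended on which background was used, and neither arm was called with either.

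The spot signal of the 3p probe was above that of the 5p probe on every array, but the size of the gap depended on the background. The ratio of blank-subtracted signals, 3p over 5p, was 17.7, 17.2 and 12.0 on control arrays 1, 2 and 3, a mean of 15.7 ± 3.16 (SD, n = 3). It was 13.2, 13.9 and 14.2 on the TGF-β arrays, a mean of 13.8 ± 0.537 (SD, n = 3). Control replicates 1 and 2 lay above all TGF-β arrays and control replicate 3 below them, and the groups overlapped. The blank spots' SD put an error of 0.689 to 1.47 on the ratio of a single array, which leaves out variation of spots and hybridization. Expressed as a share of the summed signal of both arms, the 5p probe gave 5.35% to 7.68% on the control arrays and 6.57% to 7.05% with TGF-β. Without background correction the 5p share was 13.3% to 16.7% over the 6 arrays. With the normexp correction on the local background (offset 50), where 50 units are added to both arms and draw the ratio towards 1, it was 39.95% to 55.2%. The normexp ratios and shares were taken after quantile normalization, while the blank-subtracted and the uncorrected ones were not normalized. They therefore differ in more than the background. The ratio was then 0.812, 1.09 and 1.12 on the control arrays, below 1 on control replicate 1, and 1.503, 1.14 and 1.29 with TGF-β. With an offset of 0 the ratio was 0.581, 1.23 and 1.33 on the control arrays, against 2.302, 1.36 and 1.75 with TGF-β, and the 5p share 30.3% to 63.2%. Since the probes may bind unequally, the ratio is that of the signals and not of the strands, but a probe's own affinity cancels when the ratio is compared between groups.

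**Figure D3:**
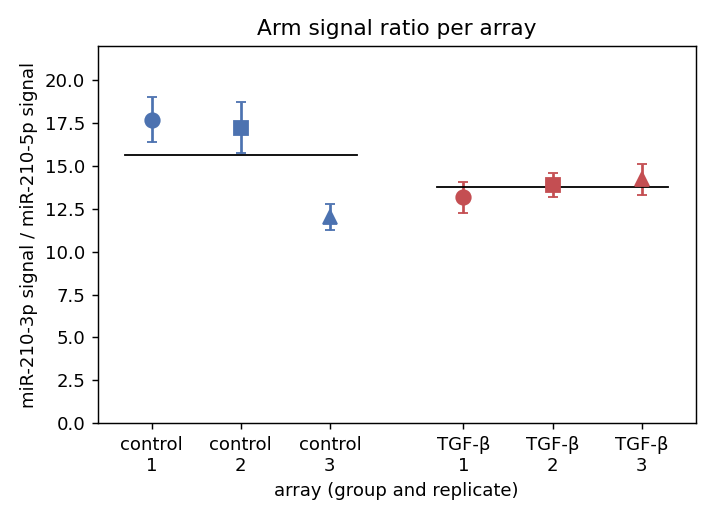
Ratio of the blank-subtracted miR-210-3p signal to the miR-210-5p signal on each array, with error bars from the SD of the blank spots on that array and a line at the mean of each group. The controls run from 12.0 to 17.7 and the TGF-β arrays lie close together between 13.2 and 14.2, inside the range of the controls.

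The change of the arm difference was tested beside that of 355 hairpins whose arms were both detected. The log2 difference of 3p minus 5p was 3.99 in control cells and 3.76 in TGF-β-treated cells, a change of -0.23 (standard error 0.22, 95% interval -0.74 to 0.28, adjusted p = 0.887 from limma), and the exact permutation test, 2-sided, gave p = 0.4. The change was larger in absolute size than that of 58.6% of these hairpins, whose median was 0.19. limma called 0 of the 355 hairpins (0%), with 29 below 0.05 before adjustment. By the methods' t-test these counts were 0 and 25. The groups did not overlap for 13.2% of the hairpins, and they overlapped for miR-210. With the normexp correction on the local background the change was 0.39, opposite in sign and not called (unadjusted p = 0.0716, adjusted p = 0.999 from limma). The groups then did not overlap, which was so for 6.48% of the hairpins with that correction.

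Over the 6 arrays the log2 values of the arms had a Pearson correlation of 0.05, given as a description over arrays that include both groups. The miRNAs with the pattern most like that of miR-210-3p over the 6 arrays, among the 1281 others detected on all of them, were miR-6125 (r = 0.987), miR-6765-5p (0.981), miR-6850-5p (0.980), miR-7704 (0.961) and miR-4465 (0.954). In all, 20 of the 1281 had a correlation above 0.9. Each of the 5 was highest on control replicate 1, as miR-210-3p was, which choosing them by this correlation fixes. Of these, 4 had a RefSeq sequence, with GC contents of 54.5% to 84.2%, where the median of all was 59.1%. Their log2 fold changes between groups, near that of miR-210-3p by the same choice, ran from -0.07 to 0.01.

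Other miRNAs described as responding to hypoxia moved in both directions. From a list of 21 miRNAs commonly described as raised by low oxygen in some cells, 20 were detected by the rule, and of these 5 rose, 2 fell and 13 did not pass the test at an adjusted p under 0.05 in limma, where 2.61% of all detected miRNAs rose and 1.37% fell. None of these calls, nor any other of the 58, was made with the normexp correction on the local background. The rises were those of miR-181b-5p (1.28 on the log2 scale, adjusted p = 5.9e-06), miR-181a-5p (1.19), miR-125b-5p (0.77), miR-181c-5p (0.71) and miR-23a-3p (0.29). The falls were those of miR-30b-5p (-0.30) and miR-26a-5p (-0.23). The median over the 20 was 0.03, beside -0.01 over all detected miRNAs. The list was written with results for the miR-181 family known, which makes up 3 of the 5 rises, and its share of calls is no independent evidence. miR-21-5p, the brightest of the list, had a log2 fold change of 0.03 (adjusted p = 0.810), and miR-107, which targets a partner of the hypoxia-inducible factor, -0.06 (adjusted p = 0.706). miR-155-5p, which targets the factor's own alpha subunit, had 0.07 (adjusted p = 0.905). miR-373-3p was detected on 2 arrays and was not tested. Of 5 miRNAs commonly described as lowered by low oxygen, all were tested, miR-16-5p fell (-0.30, adjusted p = 0.0117) and the other 4 did not pass, with a median of -0.11 over the 5.

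**Figure D4:**
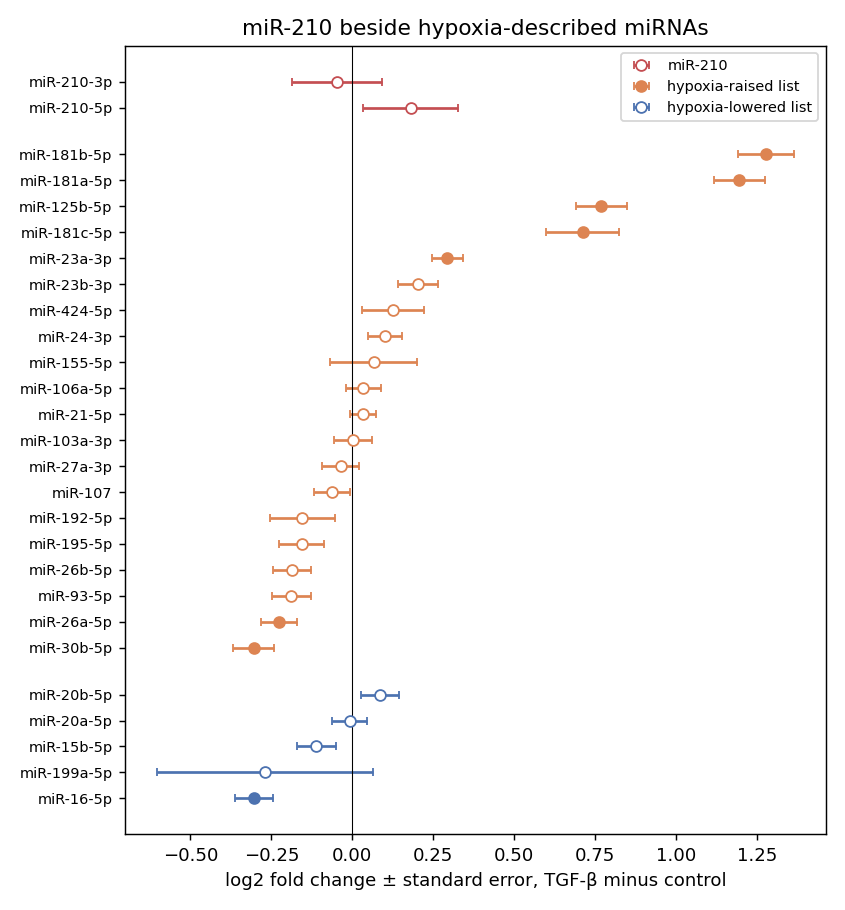
Log2 fold change ± standard error (limma, n = 3 arrays per group) of both miR-210 arms and of the detected miRNAs in the lists commonly described as raised or lowered by hypoxia. Filled points have an adjusted p under 0.05. The miR-210 arms are open points at -0.05 and 0.18, while miR-181b-5p and miR-181a-5p lie at 1.28 and 1.19.

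The RefSeq table used here lists 6 other miRNA genes within 2 Mb on chromosome 11, and their 9 mature miRNAs were all on the array and detected. Genes missing from that table are not counted. None of the 9 listed miRNAs was called, where 3.98% of all detected miRNAs were, so that this count is near the background. The log2 fold changes of these 9 lay between -0.29 (miR-6744-5p, adjusted p = 0.680) and 0.27 (miR-675-3p, adjusted p = 0.783). The nearest listed gene was MIR6743, 358683 bp away. Its 5p arm gave 107, 94.3 and 142 blank-subtracted units in control cells and 96.4, 111 and 142 units in TGF-β-treated cells, with a log2 fold change of 0.07 (adjusted p = 0.895). miR-675-5p, which is cut from the lncRNA H19, had -0.11 (adjusted p = 0.870).

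The labelled cell type was set against miRNAs known from other cells. All 4 miRNAs taken as abundant in pancreatic cancer cells were detected on every array, with summed blank-subtracted signals of 23240 to 32030 units in control cells and 24720 to 26920 in TGF-β-treated cells. Among them miR-10a-5p fell (-0.40, adjusted p = 0.0148). miR-31-5p had 0.32 (adjusted p = 0.0631), and miR-196a-5p -0.16 (adjusted p = 0.293), both with groups that did not overlap. Over all detected miRNAs 3.98% were called and 18.9% had groups that did not overlap. Of 6 epithelial miRNAs (the miR-200 family and miR-205-5p), 2 were detected by the rule, and miR-141-3p was detected on no array. All 6 together summed to 11.3 to 21.8 units in control cells and 15.6 to 19.7 in TGF-β-treated cells. Sums over a list count negative values as 0. Of 3 acinar miRNAs none was detected by the rule, with sums of 0.332 to 2.84 units in control cells, and miR-216b-5p and miR-217 were on no array above the limit. The 5 blood cell miRNAs summed to 23.1 to 34.6 units in control cells and 22.1 to 26.2 in TGF-β-treated cells. Of 2 endocrine miRNAs, miR-7-5p was detected on all 6 arrays, at 267 to 513 units in control cells and 381 to 472 in TGF-β-treated cells, and miR-375 on 1 array. The endothelial miR-126-3p was detected on every array, at 123 to 157 units in control cells and 95.6 to 117 in TGF-β-treated cells, and fell (-0.32, adjusted p = 0.0411). The 3 muscle and fibroblast miRNAs summed to 87.7 to 134 units in control cells and 43.8 to 60.5 in TGF-β-treated cells. They did not share a direction, since miR-133a-3p fell (-1.47, adjusted p = 3.59e-05), while miR-143-3p had 1.57 (adjusted p = 0.0931, groups not overlapping) and miR-145-5p 0.44 (adjusted p = 0.729), with a median of 0.44. The calls among these markers were likewise lost with the normexp correction. The part of these markers in the values of miR-210 was not tested.

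**Figure D5:**
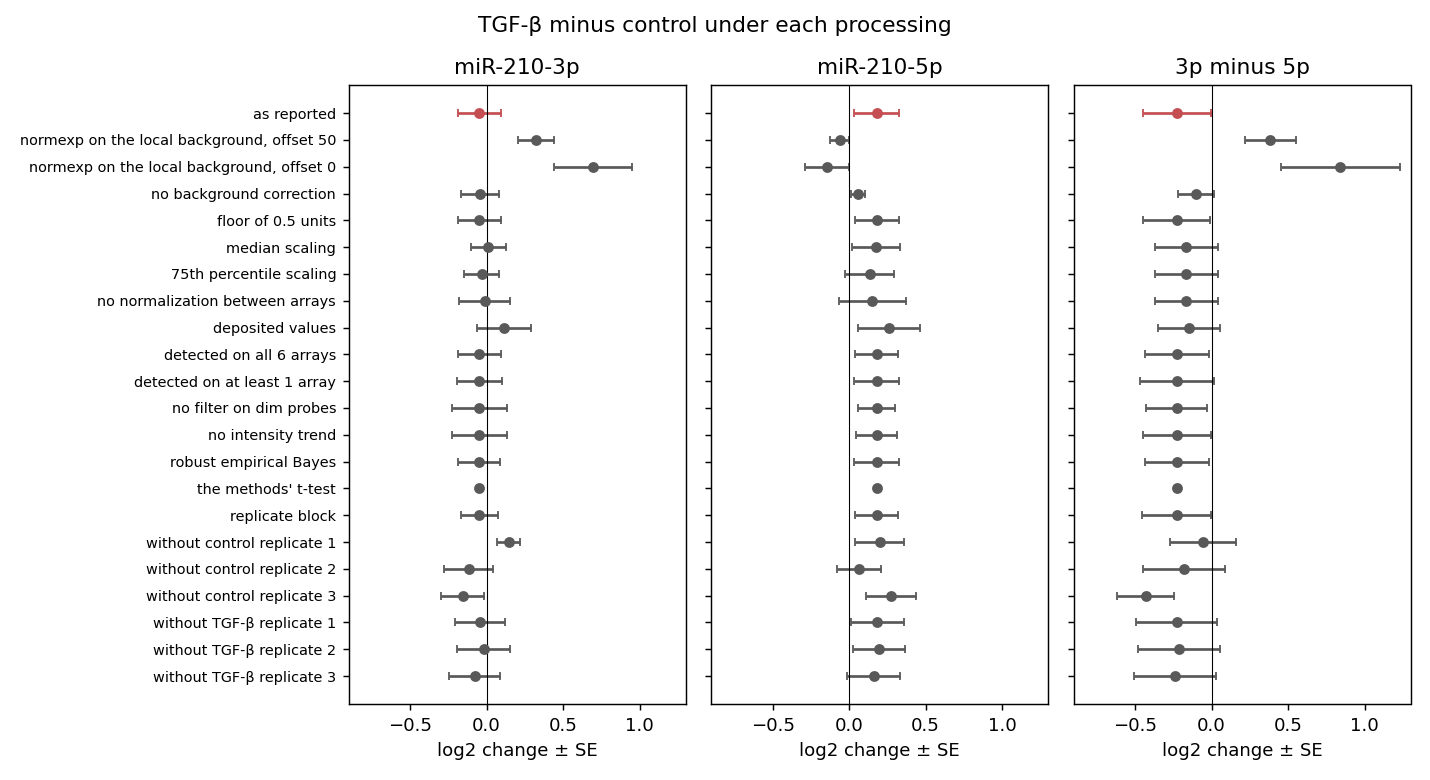
Log2 change of TGF-β minus control for miR-210-3p, miR-210-5p and their difference under each processing, with bars of ± 1 standard error (none for the methods' t-test). The reported values are in red, and the settings with the local background move miR-210-3p to 0.32 and 0.70 and the arm difference to 0.39 and 0.84.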

How the data were processed

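Total RNA was labelled with Cy5 and hybridized to 3D-Gene miRNA arrays. For each of the 6 arrays the files deposited by the authors hold the median intensity at 635 nm of each of 3200 spots and of its surroundings, not normalized, and a table of processed intensity values. That table was rebuilt from the scanner files to within rounding, with the blank mean subtracted and each array scaled to a median of 25. The tool for it is not given in the sources used here.

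The blank-spot background of the deposited table was used, with limma's normexp on the local background as an alternative, a choice made because the local background was known to move with the spot signal. Over the 2565 miRNA spots of an array their Spearman correlation was 0.795 to 0.874. The trimmed blank mean was subtracted, a floor of 1 unit set, log2 values were quantile normalized over the miRNA probes, and limma 3.58.1 (R 4.3.3; lmFit and eBayes with intensity trend) was fitted to all detected miRNAs with Benjamini-Hochberg adjustment over all of them. Spots flagged by the scanner, 3 in all and none of miR-210, were set as missing. Arm differences were fitted in the same way over hairpins. For single values an exact permutation test, 2-sided, was added. The procedure was tested on simulated data. Hairpins were folded with RNAfold 2.7.2, and figures were drawn with matplotlib 3.10.9.

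Members, lists and the choice of background were made with earlier results of these data known. The named miRNAs were both arms, list members with an adjusted p under 0.05, the 5 most correlated miRNAs, those within 2 Mb of the gene, those most like in sequence and members of the cell type marker lists. The choice among marker miRNAs, the naming of miR-21-5p, miR-107, miR-155-5p, miR-373-3p and both arms of miR-483 and the comparison with base composition were added after their values were seen.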

Additional observations from a re-analysis of the deposited data

How the results depend on the processing

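Neither arm of miR-210 nor the arm difference was called under any of the 21 alternatives. miR-210-3p changed sign with normexp on the local background (0.32 with an offset of 50, 0.70 with 0), with median scaling (0.0103, beside a median of 0.0149 over all miRNAs) and with the deposited values (0.11, beside a median of 0.11 over all miRNAs, a shift of the whole scale). With arrays left out in turn it ran from -0.16 to 0.14, being positive without control replicate 1. miR-210-5p changed sign with normexp (-0.0616 and -0.145) and ran from 0.06 to 0.28 with arrays left out, 0.06 being without control replicate 2. The arm difference changed sign with normexp (0.39 and 0.84) and ran from -0.43 (without control replicate 3) to -0.06 (without control replicate 1). The adjusted p over these alternatives was 0.502 to 1 for miR-210-3p, 0.511 to 0.993 for miR-210-5p and 0.520 to 0.999 for the arm difference.

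The count of called miRNAs, 58, was 0 with normexp at either offset, with 34 at an unadjusted p under 0.05, 35 without normalization, 31 with the deposited values, 19 without a filter on dim probes, 32 without the trend and 17 with the methods' t-test. It ran from 25 (without TGF-β replicate 2) to 51 with arrays left out, and was 35 without control replicate 2 and 33 without TGF-β replicate 3. The count of hairpins called for their arm difference, 0, became 13 without background correction and 2 with a floor of 0.5 units, and ran from 0 to 1 with arrays left out. The cause was not tested.

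The replicate numbers did not consistently pair the arrays. Correlations of the deviations of same-numbered arrays were 0.129, 0.111 and -0.03, where numbers were to count as pairs above 0.1. Of the 6 arrays, 3 correlated best with their own number. With the replicate block, 60 miRNAs were called and miR-210-3p had an adjusted p of 0.920. The number of arrays limits the precision.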
